A study of Mus musculus with 9 samples.

Results

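The rows examined here are those of the bone marrow RNA count table that differed after transplantation of costal cartilage cells while being alike after bone marrow transplantation and in healthy mice. Levels are given as CPM, each count divided by the total of its mouse and multiplied by 1000000. The rows were selected on these measured levels in all 9 mice. A row was taken when neither of the means of BMT and Health was below 0.8 times the other, when all 3 CDSCs mice lay above, or all below, the other 6 mice, when the mean of CDSCs differed at least 1.5-fold from the mean of the other 6, and when the higher of these means was at least 1 CPM. Names starting with mt-, Ig, Col, Mmp or Gimap were left out. In all, 475 of the 53172 named rows met the rule, 149 of them higher and 326 lower in CDSCs. They make up 6.8% of the 6987 rows that met the conditions on name, level and likeness of BMT and Health.

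Total RNA of bone marrow was sequenced from 9 mice, 3 in each of 3 groups. The recipients were wild-type C57BL/6J CD45.2 mice of 16 weeks that had received 9.5 Gy of Co-60 gamma irradiation on the day before transplantation. BMT mice then received 500000 bone marrow cells, and CDSCs mice received 500000 cells released by enzyme from the costal cartilage of neonatal mice, in both cases from donors carrying CD45.1 or ZsGreen and through the intraorbital vein. Marrow was collected 2 weeks later, and the Health mice were age-matched and not irradiated. The cartilage isolate was mostly CD45-negative CD51-positive cells and also held a few hematopoietic stem and progenitor cells, so the CDSCs group received both kinds of cell. Irradiation is shared by BMT and CDSCs but not by Health, and the mice that carry the same number in different groups are different animals. These are bulk samples, in which fewer cells of a type and less RNA per cell cannot be told apart. The labels describe all marrow cells. The study's methods instead describe CD45-positive and CD45-negative cells that were separated, sequenced in equal amounts and merged as data. With such merging the balance of the 2 fractions is set by the procedure, and levels do not give the composition of whole marrow.

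Bone marrow is the site of blood formation, where stem cells give rise to neutrophils, red cells, platelets and lymphocytes beside a supporting niche of stromal, bone and endothelial cells. Irradiation empties the blood-forming compartment and injures the niche, and recovery depends on the cells that are transplanted and on those that survive. A row that stands apart in CDSCs, with BMT close to Health, is one in which the recipients of cartilage cells differed both from recipients of marrow and from mice that were never irradiated.

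Before the values, the names of the rows need a caution. Some genes that mark marrow were at 0 counts in all 9 mice. They included Hbb-bs and Hbb-bt (adult beta globin), S100a8 (a neutrophil calcium-binding protein), Camp, Ctsg and Retnlg (neutrophil products), Alas2 (erythroid heme synthesis) and Epor. Others were counted, with mean counts per mouse of 701 for Hba-a1, 339 for Slc4a1, 162 for Tal1, 42.3 for Gata1 and 21189 for Mmp8. Klf1 and Mpo were near 0, with means of 1.56 and 1.89. Pgk1, a glycolytic gene that cells in general use, was also at 0, whereas Gapdh, another such gene, averaged 877 counts. Of 82 rows named for ribosomal proteins, 47 averaged fewer than 10 counts per mouse. The row with the most counts was listed as Olfr648, an olfactory receptor gene, with a mean of 350395 counts per mouse. Olfr648 lies 349501 bases from Hbb-bs in the GENCODE M21 annotation of GRCm38, and the row listed as Itga2b, the third by mean count with 105523, lies 87093 bases from Slc4a1, a red cell membrane gene. These 2 distances were looked up after the values had been seen. Whether the reads of a row come from the gene whose name it carries was not tested. The names below are therefore the labels of rows, and the role given beside a name is that of the gene so called.

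Depth was alike, at 8741155 to 10181289 counts per mouse, so that 3 counts correspond to 0.295 to 0.343 CPM. Rows of the mitochondrial genome took 6.25% to 7.15% of the counts in CDSCs and 3.95% to 5.12% in the other 6 mice, without overlap. Without those rows in the totals the rule gave 179 rows higher and 294 lower, which include 149 of the 149 and 292 of the 326.

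By construction the rows do not overlap between CDSCs and the other 6 mice, so their differences are given as a description and without a test. Of the 6987 rows, all 3 CDSCs mice lay above the other 6 in 5.67% and below them in 8.63% when no fold was asked for, and with the fold the shares were 2.13% and 4.67%. The rows that were higher reached 1.11 to 1865 CPM on their higher side, with a median of 7.02 CPM, and differed by a median of 1.97-fold. Those that were lower reached 1.01 to 2832 CPM on theirs, with a median of 13.5 CPM, and differed by a median of 1.92-fold. All 6987 rows together had a median of 27.9 CPM on the higher side and a median log2 ratio of CDSCs to the other 6 of -0.03. A difference of at least 2-fold was present in 71 of the rows that were higher and 143 of those that were lower, and one of at least 3-fold in 21 and 55.

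**Figure D1:**
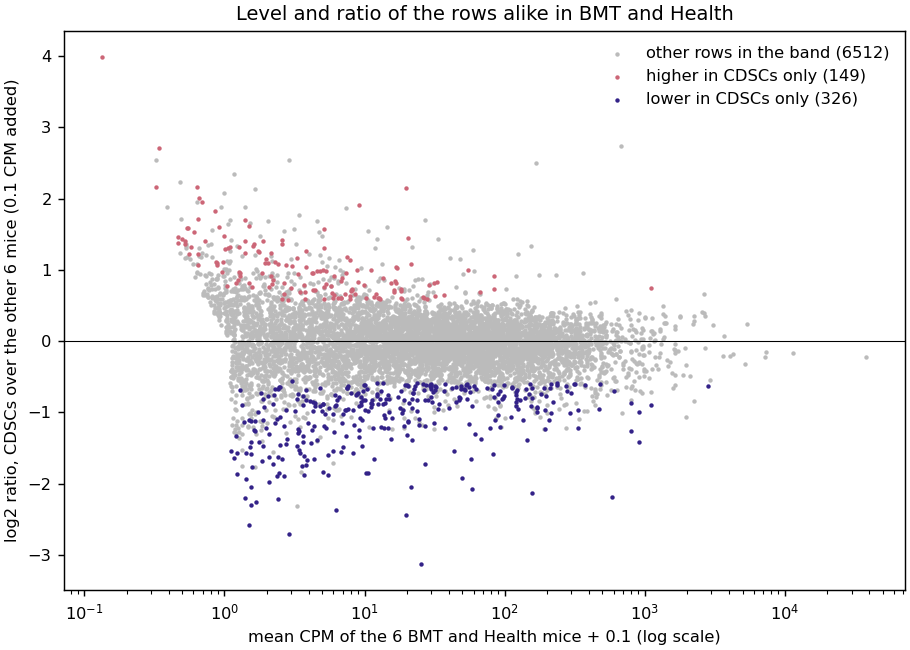
Each point is 1 of the 6987 rows alike in BMT and Health, plotted by its mean CPM in the 6 BMT and Health mice plus 0.1 (log axis) and by the log2 ratio of mean CDSCs to that mean, with 0.1 CPM added to both. Coloured points are the 149 rows higher and the 326 lower in CDSCs only, and grey points beyond the same ratios are rows whose mice overlap.

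The separation was often narrow. The nearest CDSCs mouse and the nearest of the other 6 were a median of 1.19-fold apart in either direction, and they were less than 1.1-fold apart in 38 of the 149 and 84 of the 326. A gap of at least 1.5-fold was present in 18 rows that were higher and 54 that were lower. Just inside the fold threshold stood Bivm at 1.505-fold and Slc6a12 at 1.507-fold higher, and Plbd1 at 1.504-fold and Olfr553 at 1.506-fold lower. Just outside it stood Lax1 at 1.497-fold and Gm42805 at 1.495-fold higher, and Rdh18-ps at 1.499-fold and Scgb1b28-ps at 1.498-fold lower. A further 247 and 277 rows met every condition except the fold.

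The 3 CDSCs mice did not contribute evenly. Relative to the mean of the other 6, the median log2 level of the rows that were higher was 0.96 in CDSCs-1, 0.92 in CDSCs-2 and 0.78 in CDSCs-3, and it lay between -0.10 and 0.18 in the other mice. For the rows that were lower it was -1.11, -0.89 and -0.83 in the CDSCs mice and between -0.17 and 0.26 in the others. CDSCs-1 was the most extreme of the 3 in 73 of the 149 and in 162 of the 326. It lay at least 1.5-fold beyond both other CDSCs mice in 25 and 74 rows, against 6 and 7 for CDSCs-2 and 6 and 23 for CDSCs-3. All 3 CDSCs mice lay within 1.5-fold of each other in 69 rows that were higher and 134 that were lower. Among the other 6 mice, Health-3 had the highest level in 170 of the 326 rows that were lower and BMT-3 the lowest in 125, while BMT-3 had the highest in 57 of the 149 that were higher. The median SD of log2(CPM + 0.1) over the 3 CDSCs mice was 0.32 for the rows that were higher and 0.34 for those that were lower, against 0.28 over all 6987 rows.

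**Figure D2:**
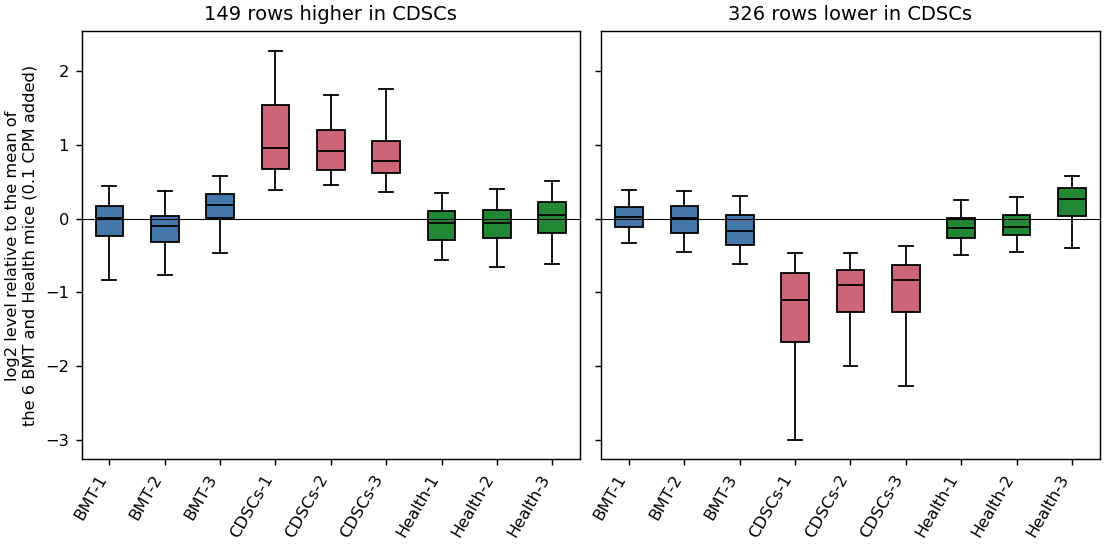
Boxes give, for each mouse, the level of the rows on the log2 scale relative to the mean of the 6 BMT and Health mice (0.1 CPM added), with the median, the quartiles and whiskers at the 5th and 95th percentiles. The medians of the 3 CDSCs mice are 0.96, 0.92 and 0.78 in the rows that were higher and -1.11, -0.89 and -0.83 in those that were lower. Among the other mice the median farthest from 0 is that of BMT-3 (0.18) in the rows that were higher and that of Health-3 (0.26) in those that were lower.

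**Figure D3:**
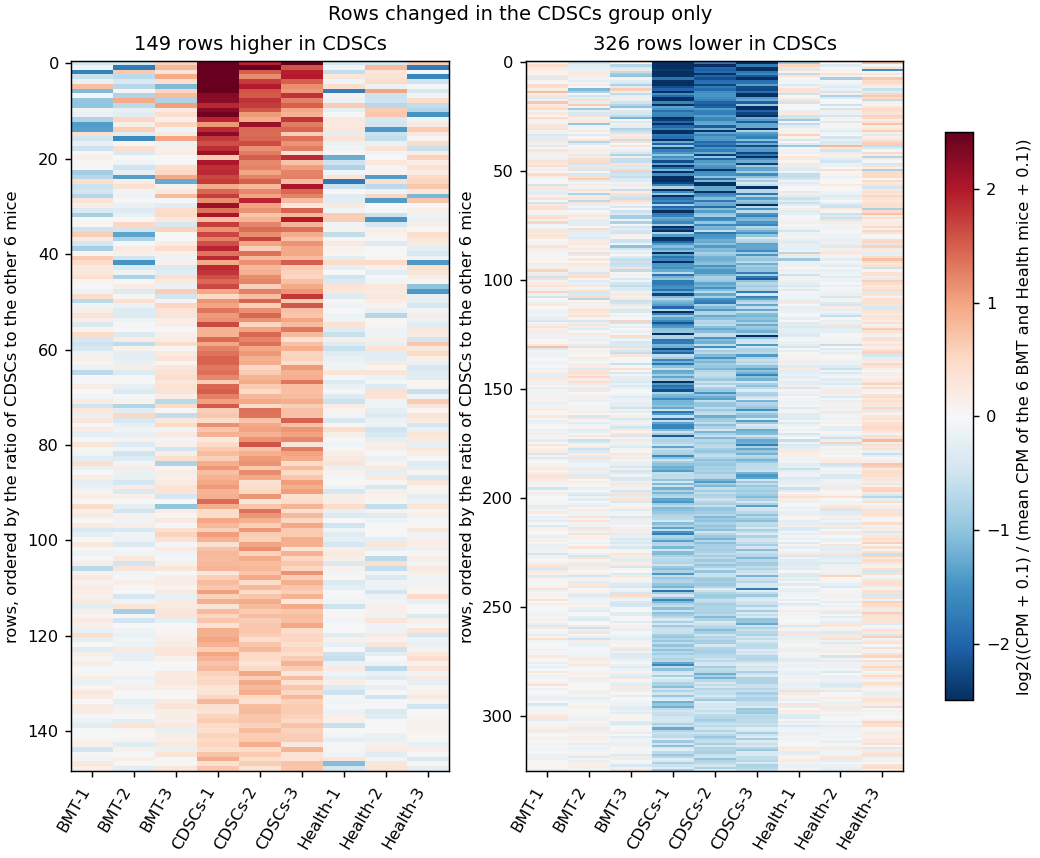
Heat map of the 149 rows higher (left) and 326 lower (right) in CDSCs, 1 line per row ordered by its ratio and 1 column per mouse, coloured by log2 level relative to the mean of the 6 BMT and Health mice with 0.1 CPM added. CDSCs-1 has the strongest colour in many of the rows with the largest ratios, and the BMT and Health columns are mostly pale.

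Summed over the 149 rows that were higher, the level was 3804 to 4651 CPM in the CDSCs mice and 2217 to 2503 CPM in the others. Over the 326 that were lower it was 10884 to 13737 CPM against 19416 to 28402 CPM. The means of BMT and Health were close in both sets, with a median BMT to Health ratio of 1.04 and 0.945, a likeness the rule requires.

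Leaving out 1 mouse changed the counts, with every condition of the rule applied to the means and values of the 8 mice left. Rows that were higher numbered 365 without CDSCs-3, 257 without BMT-3, 231 without CDSCs-2 and 225 without CDSCs-1, and rows that were lower numbered 668 without CDSCs-3 and 511 without CDSCs-1. Fewer mice are more easily separated, so a rise in these counts is partly built in and is not read as an effect of the mouse left out. Only 33 of the 149 (22.1%) and 117 of the 326 (35.9%) met the rule in each of the 9 sets that leave out 1 mouse. Their mice stay separated in every such set, so a row could drop out only through its means.

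Among the rows that were higher, Slc38a5, a transporter of glutamine and related amino acids, had the most counts. Its values were 1200.4, 1034 and 1122 CPM in the BMT mice, 1365, 1795 and 2434 CPM in the CDSCs mice and 1061, 1060.1 and 1214 CPM in the Health mice. All CDSCs mice lay above the rest, by 1.12-fold at the nearest, and the mean was 1.67-fold that of the other 6. Abca1, which exports cholesterol from cells, held 49.5, 62.7 and 67.4 CPM in the BMT mice, 137, 78.4 and 115 CPM in the CDSCs mice and 51.3, 57.6 and 41.5 CPM in the Health mice. The lowest CDSCs mouse, CDSCs-2, stood close to the highest BMT mouse, and the mean was 2.00-fold higher. Slc6a12, a betaine and GABA transporter at the edge of the rule, held 9.25, 13.8 and 11.2 CPM in the BMT mice, 17.0, 17.5 and 23.0 CPM in the CDSCs mice and 13.3, 14.4 and 14.4 CPM in the Health mice.

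Npc2, a lysosomal cholesterol-binding protein, was scarce, with 0.334, 0.306 and 1.11 CPM in the BMT mice, 4.52, 1.34 and 2.40 CPM in the CDSCs mice and 0.671, 0.692 and 0.107 CPM in the Health mice. Its 5.13-fold difference was largest in CDSCs-1, while CDSCs-2 stood just above BMT-3.

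Polr2f, a subunit shared by the nuclear RNA polymerases, held 81.4, 90.6 and 80.0 CPM in the BMT mice, 98.9, 184 and 193 CPM in the CDSCs mice and 82.0, 71.6 and 98.0 CPM in the Health mice. CDSCs-1 was level with Health-3 within 1.01-fold, and the 1.89-fold mean difference came from CDSCs-2 and CDSCs-3. Isg20l2, an exonuclease that takes part in ribosomal RNA processing, held 8.92, 5.30 and 15.7 CPM in the BMT mice, 44.2, 26.5 and 31.9 CPM in the CDSCs mice and 9.73, 6.22 and 8.46 CPM in the Health mice, a 3.78-fold difference with a clear gap of 1.69-fold. Fam3c, a secreted cytokine-like protein, held 90.1, 94.5 and 95.8 CPM in the BMT mice, 146, 116 and 157 CPM in the CDSCs mice and 66.1, 79.5 and 80.4 CPM in the Health mice. Here BMT stood somewhat above Health, and the CDSCs mean was 1.66-fold the mean of both. Airn, an imprinted noncoding RNA transcribed against Igf2r, held 73.0, 66.9 and 66.7 CPM in the BMT mice, 87.3, 107 and 131 CPM in the CDSCs mice and 66.9, 62.8 and 65.8 CPM in the Health mice, with BMT and Health close together and a 1.61-fold difference. Hilpda, a hypoxia-induced protein of lipid droplets, held 36.6, 36.1 and 35.8 CPM in the BMT mice, 63.9, 51.6 and 56.2 CPM in the CDSCs mice and 42.3, 23.2 and 46.0 CPM in the Health mice. Its BMT mice were nearly equal, its Health mice were spread, and the mean differed by 1.56-fold. Mpzl3, a membrane protein related to myelin protein zero, held 27.5, 24.5 and 37.7 CPM in the BMT mice, 63.7, 42.6 and 68.1 CPM in the CDSCs mice and 32.7, 34.1 and 40.0 CPM in the Health mice. CDSCs-2 lay only 1.07-fold above Health-3, and the mean was 1.78-fold higher.

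The largest ratios in this direction stood on few counts. Spty2d1, named for a histone chaperone, had 0, 0 and 1 counts in the BMT mice, 7, 4 and 44 in the CDSCs mice and 0, 0 and 1 in the Health mice. Pooled over mice, its ratio was 54.8, and 1 mouse, CDSCs-3, held most of the counts. The row was selected on this ratio, so the value is a description only. Its log2 ratio with 0.1 CPM added was 3.99, and it was 2.27 without CDSCs-3 and 2.78 on the deposited TPM scale. Prss57, a serine protease of neutrophil granules, held 0.223, 0 and 0.506 CPM in the BMT mice, 3.63, 1.86 and 0.915 CPM in the CDSCs mice and 0.224, 0.494 and 0 CPM in the Health mice. Tenm4, a teneurin, held 1.00, 0.306 and 0.202 CPM in the BMT mice, 3.73, 2.48 and 1.37 CPM in the CDSCs mice and 0.783, 0.494 and 0.536 CPM in the Health mice. Both were highest in CDSCs-1, and their ratios were 8.86-fold and 4.56-fold. The log2 ratio of Prss57 was 2.71 and became 2.12 without CDSCs-1, and that of Tenm4 was 2.01 and became 1.18 on the TPM scale. Zfp454, a zinc finger protein, held 0.223, 0.612 and 0.911 CPM in the BMT mice, 4.42, 1.96 and 1.37 CPM in the CDSCs mice and 0.112, 1.28 and 0.428 CPM in the Health mice, and its lowest CDSCs mouse was 1.07-fold above Health-2. Without CDSCs-1 its log2 ratio was 1.35 in place of 1.95. Gm35025 held 0, 0.408 and 0.304 CPM in the BMT mice, 2.06, 0.825 and 1.14 CPM in the CDSCs mice and 0.112, 0.296 and 0.214 CPM in the Health mice, a 6.05-fold difference. Ccl6, a chemokine of myeloid cells, held 1.67, 1.02 and 1.62 CPM in the BMT mice, 2.65, 2.58 and 2.40 CPM in the CDSCs mice and 1.12, 1.98 and 1.39 CPM in the Health mice. Its CDSCs mice agreed closely, and the mean was 1.74-fold higher.

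**Figure D4:**
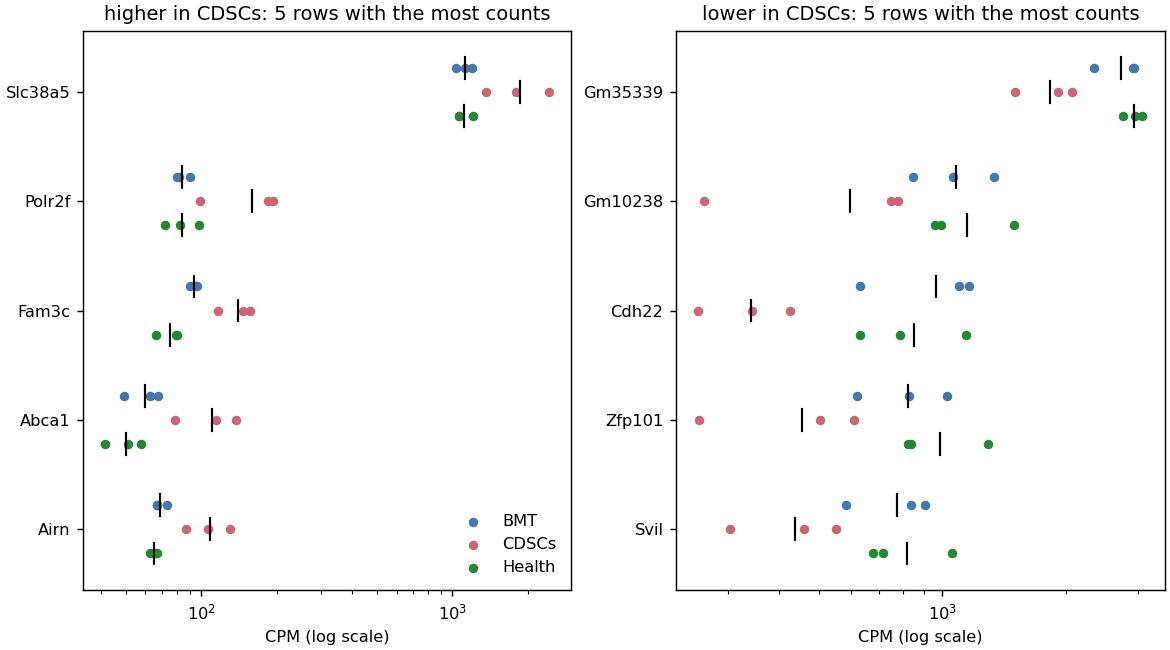
CPM (log axis) of the 5 rows with the most counts among those higher (left) and lower (right) in CDSCs, with 1 point per mouse and a vertical bar at each group's mean of 3 mice. Cdh22 in the right panel has a gap of 1.48-fold between CDSCs and the nearest other mouse, while Polr2f and Zfp101 are separated by 1.01-fold and 1.02-fold.

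Of the rows that were lower, Stk40 combined many counts with a wide gap. Stk40, named for a kinase-related signalling protein, held 614, 507 and 487 CPM in the BMT mice, 69.9, 157 and 162 CPM in the CDSCs mice and 544, 571 and 810.2 CPM in the Health mice. The lowest of the other mice was 3.01-fold above the highest CDSCs mouse, and the mean of the other 6 was 4.54-fold that of CDSCs. Its group means were 536 ± 68.4 CPM in BMT, 129.6 ± 51.7 CPM in CDSCs and 642 ± 147 CPM in Health (SD, n = 3 mice each). Cdh22, a cadherin of cell adhesion, held 1163, 1099 and 629 CPM in the BMT mice, 254, 426 and 343 CPM in the CDSCs mice and 629, 787 and 1141 CPM in the Health mice. BMT-3 and Health-1 were the lowest of the other mice, the gap was 1.48-fold, and the mean was 2.66-fold lower in CDSCs. Efna2, an ephrin ligand bound by Eph receptors, held 563, 631 and 492 CPM in the BMT mice, 332, 387 and 399.9 CPM in the CDSCs mice and 569, 589 and 800.0 CPM in the Health mice, a 1.63-fold difference with CDSCs mice of similar level.

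In several of the most counted rows 1 CDSCs mouse was far below the other CDSCs mice. Gm10238 held 1061, 1341 and 846 CPM in the BMT mice, 261, 749.9 and 779 CPM in the CDSCs mice and 990.2, 962 and 1499 CPM in the Health mice. Rrp7a, a ribosome assembly factor, held 782, 918 and 558 CPM in the BMT mice, 148, 345 and 502 CPM in the CDSCs mice and 691, 704 and 1125 CPM in the Health mice. CDSCs-1 was lowest in both, and the means were 1.87-fold and 2.40-fold lower. Zfp101, a zinc finger protein, held 830.2, 1027 and 620.0 CPM in the BMT mice, 255, 502 and 608 CPM in the CDSCs mice and 824, 839 and 1295 CPM in the Health mice. CDSCs-3 and BMT-3 differed by only 1.02-fold, so that the 1.99-fold difference of means hides 2 neighbouring mice. Svil, an actin- and membrane-binding protein, held 839, 905 and 581 CPM in the BMT mice, 303, 461 and 549.6 CPM in the CDSCs mice and 679, 717 and 1058 CPM in the Health mice, and the same mice were 1.06-fold apart. Gm35339, the row with the most counts of all those that were lower, held 2931, 2914 and 2341 CPM in the BMT mice, 1919.6, 2079 and 1504 CPM in the CDSCs mice and 3079.8, 2957 and 2767 CPM in the Health mice, and here CDSCs-3 was the lowest.

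The largest ratios among the rows that were lower were 9.32-fold for Gm42721 and 9.07-fold for 9230116L04Rik. 9230116L04Rik held 30.3, 17.5 and 21.4 CPM in the BMT mice, 3.24, 4.13 and 0.915 CPM in the CDSCs mice and 30.0, 20.0 and 31.2 CPM in the Health mice, and its gap of 4.25-fold was the widest of the 326. Gm42721 had only 1.89, 1.12 and 0.810 CPM in the BMT mice, 0, 0.103 and 0.343 CPM in the CDSCs mice and 2.01, 1.09 and 1.39 CPM in the Health mice, which in the CDSCs mice are 0, 1 and 3 counts. With 0.1 CPM added its log2 ratio was -2.58, smaller in size than the -3.14 of 9230116L04Rik, and it was -3.29 without CDSCs-3. Krt75, a keratin of hair follicle, held 23.5, 17.1 and 15.4 CPM in the BMT mice, 3.44, 4.95 and 2.29 CPM in the CDSCs mice and 15.7, 20.4 and 26.7 CPM in the Health mice, a 5.56-fold difference with a gap of 3.11-fold. Tmem201, a protein of the inner nuclear membrane, held 2.56, 1.94 and 3.04 CPM in the BMT mice, 0.196, 0.722 and 0.114 CPM in the CDSCs mice and 1.45, 2.96 and 4.82 CPM in the Health mice, and Gm4948 held 6.91, 5.40 and 7.59 CPM in the BMT mice, 1.08, 1.44 and 0.801 CPM in the CDSCs mice and 8.28, 6.62 and 2.04 CPM in the Health mice, with Health-3 well below the other Health mice. The log2 ratio of Tmem201 was -2.70, and it was -3.50 without CDSCs-2 and -2.07 on the TPM scale. Hoxd1, a homeobox factor, held 1.67, 1.94 and 0.810 CPM in the BMT mice, 0.0982, 0.206 and 0.458 CPM in the CDSCs mice and 1.01, 2.07 and 2.04 CPM in the Health mice. Gdf7, a ligand of the BMP family, held 1.56, 1.73 and 0.911 CPM in the BMT mice, 0, 0.309 and 0.343 CPM in the CDSCs mice and 1.57, 1.48 and 1.5 CPM in the Health mice, and CDSCs-1 had none of its reads. Their ratios were 6.26-fold and 6.70-fold, on levels of at most about 2 CPM.

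Pecam1, an adhesion molecule of endothelial cells and platelets, held 3.01, 3.06 and 2.93 CPM in the BMT mice, 1.47, 1.44 and 1.03 CPM in the CDSCs mice and 2.91, 3.75 and 3.75 CPM in the Health mice. The CDSCs mice agreed, the gap was 1.97-fold, and the mean was 2.46-fold lower. Clec1b, the platelet receptor for podoplanin, held 2.90, 2.65 and 1.11 CPM in the BMT mice, 0.295, 0.516 and 0.458 CPM in the CDSCs mice and 2.91, 2.17 and 2.25 CPM in the Health mice, a 5.52-fold difference. Ifi44, an interferon-induced gene, held 4.68, 2.55 and 2.33 CPM in the BMT mice, 1.08, 1.13 and 1.03 CPM in the CDSCs mice and 2.13, 3.56 and 4.71 CPM in the Health mice. Its CDSCs mice were nearly equal, and the mean was 3.07-fold lower. At the edge of the rule, Plbd1, a phospholipase B-like protein, held 246, 261 and 179.5 CPM in the BMT mice, 164, 173 and 137 CPM in the CDSCs mice and 216, 216 and 309.6 CPM in the Health mice, and Olfr553, an olfactory receptor, held 2.56, 2.85 and 3.85 CPM in the BMT mice, 1.57, 2.37 and 1.94 CPM in the CDSCs mice and 2.91, 2.57 and 3.00 CPM in the Health mice.

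Genes of 20 marker and pathway lists were looked up among the rows. The lists covered marrow cell types, niche factors, cartilage and bone, and stress, cycle, signalling and metabolic pathways. They name 328 genes, of which 327 are in the table, 65 met the conditions on level and likeness of BMT and Health, and 67 were at 0 in all mice. Of the 65, 3 were among the rows, where 6.8% of all 6987 were, namely Ccl6 from the cytokine list, Pecam1 from the endothelial list and Ifi44 from the interferon list. The other 17 lists held none. Across the lists the median log2 ratio of their eligible genes ran from -0.37 for glycolysis and hypoxia (2 genes) to 0.41 for unfolded protein and heat shock (2 genes), against -0.03 for all 6987 rows. None of the 16 neutrophil genes was eligible. Of these, 13 had a mean under 10 counts, and Mmp8 and Mmp9, with means of 21189 and 498 counts, were left out by the rule on names.

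The summed levels of 3 of the 20 lists did not overlap between CDSCs and the other mice. Among the 6987 single rows, all 3 CDSCs mice lay above the other 6 in 5.67% and below them in 8.63%. The other lists overlapped, such as the endothelial list, at 1083 to 1208 CPM in CDSCs, 1161 to 1361 CPM in BMT and 1132 to 1309 CPM in Health. None of the genes of the 3 lists was among the rows, from which the rule on names leaves out Mmp genes. The summed level of the neutrophil list was 475 to 860 CPM in CDSCs, 1865 to 4044 CPM in BMT and 2536 to 4182 CPM in Health, most of it in the row listed as Mmp8, and S100a8, Camp, Ctsg and Retnlg were at 0. The niche list summed to 413 to 457 CPM in CDSCs, 335 to 371 CPM in BMT and 273 to 291 CPM in Health, with 12 of its 20 genes under a mean of 10 counts and 5 at 0. Cartilage and bone genes summed to 8.24 to 10.01 CPM in CDSCs, 6.46 to 8.10 CPM in BMT and 6.6 to 7.71 CPM in Health, with 11 of 14 under 10 counts and 4 at 0. The part of these cell types in the 475 rows was not tested.

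In the fit across all rows (the quasi-likelihood test of edgeR, adjusted after Benjamini and Hochberg), the contrast of CDSCs with the average of BMT and Health called 6.86% of 12572 tested rows higher and 5.47% lower. This is the contrast the rule used, so the rows are set beside it without reading anything from them. Of the 149 that were higher, 137 passed the filter on low counts and 93 were called. All 326 that were lower passed it and 245 were called. Without 1 mouse, the rows called fell from 338 to 114 without CDSCs-2, 158 without BMT-1, 188 without BMT-2, 194 without Health-1 and 216 without Health-2.

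Each group alone was compared with CDSCs in the same fit. The rule used these values too, so the counts and rows that follow are a description and nothing is read from them. The comparison with BMT called 0.326% of all tested rows higher and 0.7% lower, and it called 6 of the 137 and 34 of the 326. The comparison with Health called 8.69% and 8.28% of all tested rows, and it called 63 of the 137 and 245 of the 326. Both comparisons share the CDSCs mice. Among the 6 called against BMT were Gm44027, Isg20l2, Mapk3 (the kinase ERK1), Avpi1 and Hc (complement C5). Mapk3 held 12.6, 9.58 and 15.2 CPM in the BMT mice, 23.3, 25.1 and 27.2 CPM in the CDSCs mice and 15.0, 13.7 and 15.1 CPM in the Health mice, and Hc held 1.78, 2.34 and 2.93 CPM in the BMT mice, 6.88, 5.88 and 6.86 CPM in the CDSCs mice and 2.46, 2.27 and 3.11 CPM in the Health mice. Gm44027 held 24.0, 19.5 and 23.7 CPM in the BMT mice, 47.3, 46.6 and 42.8 CPM in the CDSCs mice and 19.8, 22.2 and 19.3 CPM in the Health mice, and Avpi1 held 2.79, 3.67 and 4.25 CPM in the BMT mice, 11.6, 7.53 and 8.24 CPM in the CDSCs mice and 4.36, 2.96 and 4.39 CPM in the Health mice. In all 4 every CDSCs mouse stood at least 1.53-fold above the other mice. Among the 34 were Stk40, Cdh22, Krt75 and 9230116L04Rik, together with Tmcc1, a membrane protein of the endoplasmic reticulum, and P2ry10, a receptor of lymphocytes for lysophospholipids. Tmcc1 held 92.8, 78.2 and 63.5 CPM in the BMT mice, 30.2, 34.9 and 17.0 CPM in the CDSCs mice and 73.5, 71.7 and 115 CPM in the Health mice. P2ry10 held 34.0, 24.9 and 23.1 CPM in the BMT mice, 6.97, 6.29 and 11.1 CPM in the CDSCs mice and 22.2, 28.3 and 29.7 CPM in the Health mice. Gm44027, Mapk3, Avpi1, Hc, Tmcc1 and P2ry10 are named here after their values were seen.

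Many of the rows that were lower lay next to each other in the genome. Placed on GRCm38 by GENCODE M21, 317 of the 326 had a position and formed 273 loci when rows within 10 kb were joined, and 35 of these loci held 79 rows, with at most 3 in a locus. Of the 248 rows of the 6987 that lay within 10 kb of such a row, 79 (31.9%) were themselves among the rows, against 4.67% of all. The rows that were higher were more scattered, with 143 placed in 141 loci and 4 of 85 neighbouring rows (4.71%) among them, against 2.13% of all. These distances were examined after the values had been seen and were not tested. Of the 46 neighbouring pairs, 37 had at least 10 counts in every mouse. In 13 of the 37 the ratio of the 2 rows stayed within 1.5-fold over all 9 mice, and in 24 within 2-fold. The rule makes both rows of a pair differ in the same direction in CDSCs, which steadies the ratio. Pairs of rows that are not neighbours were not compared, so nothing is read from these counts. The spans of 16 of the 46 pairs overlap, and strand cannot separate the reads of pairs on the same strand, such as Smgc and Muc19. For pairs on opposite strands it depends on whether the counting used strand, which the sources used here do not state.

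Smgc and Muc19 kept the steadiest ratio of all pairs with at least 10 counts. Smgc, a mucin-like salivary gland gene, held 90.5, 94.8 and 52.3 CPM in the BMT mice, 28.6, 39.1 and 33.6 CPM in the CDSCs mice and 69.6, 70.7 and 95.1 CPM in the Health mice. Muc19, a gel-forming mucin, held 222, 226 and 139 CPM in the BMT mice, 75.6, 92.1 and 79.2 CPM in the CDSCs mice and 165, 178 and 235 CPM in the Health mice. Muc19 was 2.35 to 2.66 times Smgc in every mouse, and the annotated spans, chr15:91838265-91861438 and chr15:91838326-91934555, overlap. Gm12946 at chr4:126145979-126147735 follows Stk40 at chr4:126103957-126141029 without overlap. Gm12946 held 153, 147 and 121 CPM in the BMT mice, 20.2, 43.0 and 44.5 CPM in the CDSCs mice and 153, 150.5 and 221 CPM in the Health mice, which was 0.249 to 0.290 times Stk40 in each of the 9 mice.

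Dctn4, a dynactin subunit, Rbm22, a splicing factor, and Myoz3, a muscle Z-disc protein, stand in a row without overlap. Dctn4 held 106, 93.5 and 69.7 CPM in the BMT mice, 44.3, 39.6 and 63.8 CPM in the CDSCs mice and 72.9, 80.8 and 113 CPM in the Health mice, Rbm22 was 0.479 to 0.584 times Dctn4, and Myoz3 was 0.564 to 0.801 times Rbm22. Map4k2, a kinase upstream of stress signalling, Gm14966 and Sf1, a splicing factor, overlap at their ends. Map4k2 held 432, 505 and 440.2 CPM in the BMT mice, 219, 239 and 267 CPM in the CDSCs mice and 409.7, 429.6 and 605 CPM in the Health mice, Gm14966 was 0.0749 to 0.101 times Map4k2, and Sf1 was 1.74 to 2.60 times Gm14966. These 4 sets were chosen after their values were seen, and whether neighbouring rows share reads or a transcript was not tested.

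**Figure D5:**
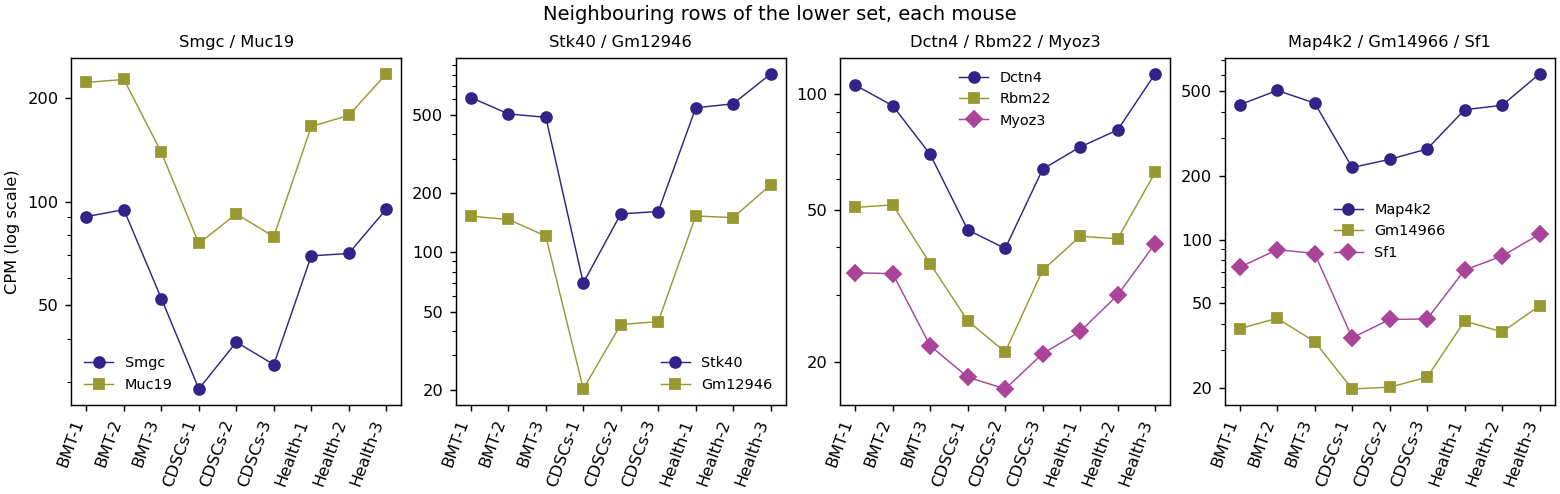
CPM (log axis) in each of the 9 mice for 4 sets of neighbouring rows that were lower in CDSCs, with 1 colour and marker per row and lines that only join the values of a row, the mice having no order. The rule requires every row to be lowest in the 3 CDSCs mice. The ratio of Muc19 to Smgc was 2.35 to 2.66, and that of Sf1 to Gm14966 was wider, at 1.74 to 2.60.

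The kinds of gene named were close to those of the table. Protein-coding names made up 73.8% of the rows that were higher and 69.6% of those that were lower, against 72.6% of the 6987, and long noncoding names 10.7% and 14.4% against 12.1%. Pseudogene names made up 6.71% and 6.75% against 6.63%, and names of the Gm or Rik form 24.2% and 27.6% against 25.3%.

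The same rule with another group set apart gave other totals. With BMT apart from CDSCs and Health it found 131 rows (66 higher and 65 lower, 2.49% of 5253), and with Health apart from both transplants 504 (183 higher and 321 lower, 7.45% of 6761). These counts use the same 9 mice, and their differences were not tested.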

How the data were processed

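Per the labels and the study's methods, total RNA of bone marrow from 9 mice was poly(A)-selected and sequenced. The labels describe all marrow cells, whereas the study's methods describe CD45-positive and CD45-negative cells separated with magnetic beads and sequenced in equal amounts, whose data were brought to the same depth and then merged. The authors trimmed the reads with Trim Galore, aligned them with HISAT2 and deposited whole-number read counts per gene name from featureCounts. The submitters' processing notes name GRCm38. The annotation and the strand setting are not given in the sources used here. The deposited TPM values, made from these counts by the authors, served as an alternative scale. In BMT-1, the length implied by TPM and counts was within 5% of the GENCODE M21 exon length for 96.8% of 11218 rows.

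Groups came from the sample titles. CPM was the count divided by the column sum, times 1000000. Of the 53172 names, 50565 matched 1 gene of GENCODE M21 (GRCm38), as did 460 of the 475 rows. The fit across rows used edgeR 4.0.16 in R 4.3.3 (TMM, filterByExpr, glmQLFit and glmQLFTest, two-sided, adjusted p under 0.05), with the 3 groups in 1 model and no replicate block, and was tested on simulated data. DESeq2 1.42.0 was an alternative. Log2 ratios had 0.1 CPM added to both means. Tables used Python 3.11.15, numpy 2.4.6, pandas 2.3.3 and scipy 1.17.1, and figures matplotlib 3.10.9. Named were, in each direction, the 8 rows with the most counts, the 8 with the largest ratio, every row in a gene list, and the 2 rows on each side of the fold threshold, with further rows marked where they appear. Of these, 1 row is not reported here. The members and the gene lists were chosen with earlier results of these data known. Whether the 3 mice of a group were housed or transplanted separately is not given, so the adjusted p-values measure the spread between these mice only.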

Additional observations from a re-analysis of the deposited data

How the results depend on the processing

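Counts from the rule depended on its thresholds. The rows higher and lower in CDSCs only, 149 and 326, became 71 and 143 with a fold of 2, 77 and 162 with the band narrowed to 0.9, and 529 and 618 with no band. With at least 5 CPM they became 85 and 229. TMM-scaled totals gave 171 and 309, of which 123 and 268 were shared with the main lists, and DESeq2 size factors gave 182 and 296, of which 133 and 271 were shared. Leaving out each mouse in turn gave 150 to 365 rows higher and 323 to 668 lower. In the edgeR fit, 1551 rows were called, 2066 by DESeq2's Wald test, 2642 with no filter on low counts, and 624 to 1843 with 1 mouse left out. The lowest were 624 without CDSCs-2, 860 without BMT-1, 917 without Health-1, 958 without BMT-2 and 971 without Health-2. Of the 475 rows, 338 were called, 379 by DESeq2 and 114 to 294 with 1 mouse left out. Of 456 log2 ratios of the named rows under other scalings, TPM or 1 mouse fewer, 448 moved by less than the SD of the CDSCs mice and 8 by more. Most of these leave out 1 mouse, which tends to move a ratio by only part of that SD. The 448 therefore say little about stability. They include Spty2d1, which went from 3.99 to 2.27 without CDSCs-3. With 1 mouse fewer the rule fixes the sign, so the direction is no sign of stability. The scalings shifted the median log2 ratio of all eligible rows by at most 0.034.

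With the replicate number as a block, 920 rows and 197 of the 475 were called. Deviations of same-numbered mice correlated between -0.34 and 0.22, and those of differently numbered mice between -0.42 and 0.43. These values show no pairing by number, but with 3 mice per group they cannot exclude one.

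With 3 mice per group, 3 counts per library as the floor and row names whose reads were not traced, small ratios and rows near 1 CPM carry the least certainty.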
